A study of Mus musculus with 20 samples.

Results

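The region described here is the telomeric flank of the *Lbx1*/*Fgf8* locus, the last stretch of the captured interval beyond *Fgf8*, from 45835001 to 46400000 on mouse chromosome 19 (mm9). Its members are the pairs of 5 kb bins of which both lie in this interval, and they were chosen by position alone. The flank held 113 bins and 6441 bin pairs, out of 392 bins and 77028 bin pairs in the whole map. It was measured by capture Hi-C, in which DNA is cut and religated inside fixed nuclei, and junctions from a captured stretch of the genome are counted as contacts. The study engineered structural variants of split-hand/foot malformation type 3 in mice and mapped contact in E11.5 forelimb and hindlimb buds. There were 20 libraries, which the authors merged into 6 maps, 1 per genotype.

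For wild-type, of the c57bl6.J strain, 3 biological replicates and 1 technical replicate had been joined. The homozygous *Dup* (a tandem duplication), *Inv1* and *Inv2* (inversions) maps also merged 3 biological replicates and 1 technical replicate each, heterozygous *Inv1* merged 3 biological replicates, and heterozygous *Dup* was 1 library. All mutants carried the strain label G4 ESC, the hybrid embryonic stem cell line from which the edited mice were made before crossing to C57Bl6, so that strain and the difference of any mutant from wild-type cannot be told apart. In the heterozygotes the other chromosome was not rearranged. The heterozygous *Dup* library was taken as such from its title, although another of its labels names an inversion. In its map the median bin of the duplication held 1.56 times the read pairs of wild-type, relative to bins outside it. This was 2.05 times in homozygous *Dup* and 1.05 times in heterozygous *Inv1*. The duplicated bins ran from 45250001 to 45795000, which leaves 40 kb between the rearranged interval and the flank. On the same scale, the median bin of the flank held between 0.986 and 1.05 times the wild-type read pairs in the 5 mutants. Single bins of the flank ranged from 0.545 times in heterozygous *Dup* to 1.51 times in heterozygous *Inv1*.

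Chromatin of mammals folds into topologically associating domains (TADs), stretches in which DNA meets itself more often than it meets its neighbours. Many domain borders and loop anchors bind CTCF, which halts the loop-extruding cohesin complex, and active promoters are often found at borders too. A border appears in a contact map as a minimum of insulation, a place over which little contact passes, and a loop as a spot of contact stronger than its surroundings. No rearrangement of the series reached the flank, so it served as a stretch of the same libraries in which the order of the sequence was the same in all genotypes.

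The flank held the start sites of 11 protein-coding genes. From the centromeric side, these were *Oga* (named *Mgea5* in the annotation used, the enzyme that removes O-linked N-acetylglucosamine from proteins), *Kcnip2* (a subunit of potassium channels), *Armh3* (named 9130011E15Rik), *Hps6* (a part of the BLOC-2 complex of lysosome-related organelles), *Ldb1* (an adaptor of LIM-domain transcription factors), *Pprc1* (a coactivator of mitochondrial gene programmes), *Nolc1* (a nucleolar chaperone of small nucleolar ribonucleoproteins), *Elovl3* (an elongase of fatty acids), *Pitx3* (a homeodomain factor of lens and midbrain), *Gbf1* (an exchange factor for Arf GTPases at the Golgi) and *Nfkb2* (a subunit of NF-κB). Most of *Psd* lies in the flank too, but its start site, at 46401646, lies just past the end of the flank. *Ldb1* and *Pprc1* start in the same 5 kb bin, so that 10 bins held a protein-coding start site. The flank had 1.95 such start sites per 100 kb, beside 1.98 in the centromeric flank of the map, 1.10 in the rearranged interval and 1.79 over the whole map. The flank was thus richer in genes than the rearranged interval and not richer than the other flank. Its GC content was 45.4% ± 4.38 (SD over 113 bins), beside 47.9% ± 3.73 over the 162 bins of the centromeric flank, and it held 11.6 ± 3.48 DpnII sites per bin beside 12.6 ± 4.15.

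CTCF binding was not analysed here, and the sequence was searched instead for letters that resemble the core of the CTCF motif, CCNNNAGGGGGC, on both strands. Such a match is a description of the sequence and not a binding site. The flank held 5 of the 25 matches of the map, so that 4.42% of its bins (95% Wilson interval 1.90% to 9.94%) and 6.38% of all bins held 1. They are shown because 3 of them lay within 1 bin of an anchor of the strongest loops described later, and 1 of these also lay beside an insulation minimum. Each is printed 5′ to 3′ on the strand that holds the match, with the match in capitals and 8 bases on either side, from mm9.
Kcnip2 first exon, chr19:45890360-45890387, minus strand: tcgctgcgCCGCCAGGGGGCactgtgtg
Armh3 intron, chr19:45921632-45921659, plus strand: gggggtgtCCACTAGGGGGCcatggtgc
Nolc1 upstream, chr19:46150285-46150312, minus strand: gtcatcatCCTGCAGGGGGCggagccca
intergenic before Elovl3, chr19:46189304-46189331, minus strand: acacttgaCCTCAAGGGGGCgtaagttc
Pitx3 intron, chr19:46211827-46211854, plus strand: ctccacccCCAGAAGGGGGCgcgctcac
The match of *Kcnip2* lay in its untranslated first exon, 172 bases downstream of the start site, and that of *Nolc1* lay 49 bases upstream of the start site. A looser pattern, CCNNNAGNNGGC, which contains every match of the first, was found in 66.4% of the bins of the flank and 66.8% of all bins, and so did not distinguish bins.

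Undoing the normalization factor of each bin gave whole numbers of read pairs in all 6 maps. The flank held 1656189 read pairs in wild-type, 2083369 in *Dup*, 2339553 in *Inv1*, 2624649 in *Inv2*, 631307 in heterozygous *Dup* and 1548945 in heterozygous *Inv1*, between 15.9% and 21.0% of each map. The median bin pair of the flank held 81 read pairs in wild-type, between 97 and 136 in the other maps with replicates and 29 in heterozygous *Dup*. Heterozygous *Dup* is therefore the least precise of the maps. The share of the flank's read pairs that joined 2 different bins was 75.5% in wild-type, 66.5% in heterozygous *Dup*, and between 76.9% and 86.0% in the other 4, with heterozygous *Inv1* highest. Since replicates were merged before deposit, no test of genotypes was possible. Intervals given below are 95% intervals of counting error from the read pairs, and do not cover the spread between embryos.

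In wild-type, the flank folded into an outer domain on either side and a short stretch between them. The insulation score, the log2 of the mean contact between the 50 kb before and the 50 kb after a bin edge relative to the mean over the flank, had minima at 46090000 and 46150000, counting those with a prominence of at least 0.2. The stretches between the minima and the ends of the flank are called the centromeric domain (255 kb, with the starts of *Oga*, *Kcnip2*, *Armh3* and *Hps6*), the middle interval (60 kb, with *Ldb1* and *Pprc1*) and the telomeric domain (250 kb, with *Nolc1*, *Elovl3*, *Pitx3*, *Gbf1* and *Nfkb2*). The minimum at 46150000 lay at the edge between the end of *Pprc1* and the start of *Nolc1* at 46150353, at the start of the bin that also held the upstream match printed above. The minimum at 46090000 lay past the ends of *Hps6* and of the non-coding 4930505N22Rik. The highest score of all 6 maps lay at 46275000, within *Gbf1*, at 0.45 in wild-type and between 0.45 and 0.47 in the mutants.

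**Figure D1:**
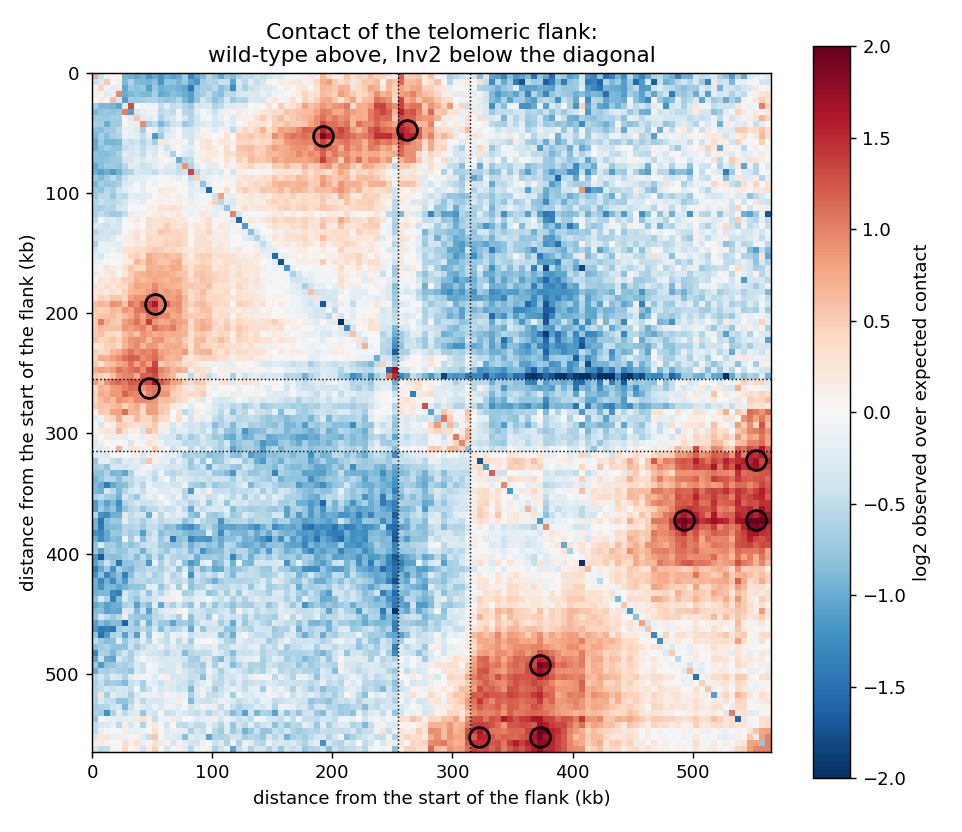
Contact of the telomeric flank as log2 observed over expected for each pair of 5 kb bins, by distance from the start of the flank in kb, with wild-type above the diagonal and homozygous *Inv2* below it. Dotted lines mark the wild-type insulation minima at 255 and 315 kb and circles the 5 strongest wild-type loops, which appear on both sides of the diagonal, as do both outer domains.

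The 2 minima were scored in the other 5 maps, none of which had been used to choose them. At 46150000 the score was -0.50 in wild-type (-0.52 to -0.48), -0.44 in *Dup*, -0.44 in *Inv1*, -0.45 in *Inv2*, -0.38 in heterozygous *Dup* (-0.42 to -0.35) and -0.43 in heterozygous *Inv1*. It was the lowest edge within 25 kb in all 6 maps. At 46090000 the score was -0.49 in wild-type (-0.52 to -0.47), -0.48 in *Dup*, -0.43 in *Inv1*, -0.44 in *Inv2*, -0.52 in heterozygous *Dup* and -0.39 in heterozygous *Inv1* (-0.41 to -0.37). Here the lowest edge within 25 kb was the same in *Dup* and heterozygous *Inv1*, and lay 15 kb closer to the centromere, at 46075000, in *Inv1* and *Inv2*, while in heterozygous *Dup* both edges scored -0.52 and could not be ordered. That edge falls between the starts of *Armh3* and *Hps6*. When minima were called on each map by the same rule, the one at 46150000 was returned in *Dup*, *Inv2* and heterozygous *Inv1* but not in *Inv1* and heterozygous *Dup*, where the prominence was under 0.2, and *Dup* had a further minimum at 46210000 (-0.28).

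The position of the centromeric minimum depended on bins with few read pairs. The bin from 46085001 to 46090000, just before the wild-type minimum, held between 35.5% and 48.7% of the flank's median read pairs to other bins of the flank in the 6 maps. Without it, all 6 maps had minima at 46090000, with scores between -0.58 (*Dup*) and -0.51 (heterozygous *Inv1*), and at 46150000, and *Dup* again had one at 46210000. Without all 6 bins of the flank that had under 50% of the median in wild-type, the first minimum lay at 46090000 in 4 maps and at 46080000 in *Inv1* and *Inv2*, and the second at 46150000 in every map except heterozygous *Dup*. Both choices were made after the values were seen. On recovered read pairs without bin factors, the wild-type minima lay at 46090000 and at 46205000, so that the minimum at *Nolc1* was called after normalization for bin coverage and not before it.

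Averaged over both minima, the mutant score was higher than that of wild-type, that is, less deep, by 0.04 in *Dup* (± 0.02, counting interval), 0.06 in *Inv1* (± 0.02), 0.05 in *Inv2* (± 0.02), 0.04 in heterozygous *Dup* (± 0.03) and 0.08 in heterozygous *Inv1* (± 0.02). The wild-type values lean towards depth because the minima were chosen on that map. Over all 94 scored edges, the score ranged from -0.55 to 0.45 in wild-type, a range of 1.00, and its root mean square difference from wild-type was between 0.04 (*Dup*, *Inv1* and *Inv2*) and 0.06 (heterozygous *Dup* and heterozygous *Inv1*). The largest difference at any edge was 0.14, in heterozygous *Dup* at 46055000. The profiles of the 6 maps thus differed by much less than the score changed along the flank.

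**Figure D2:**
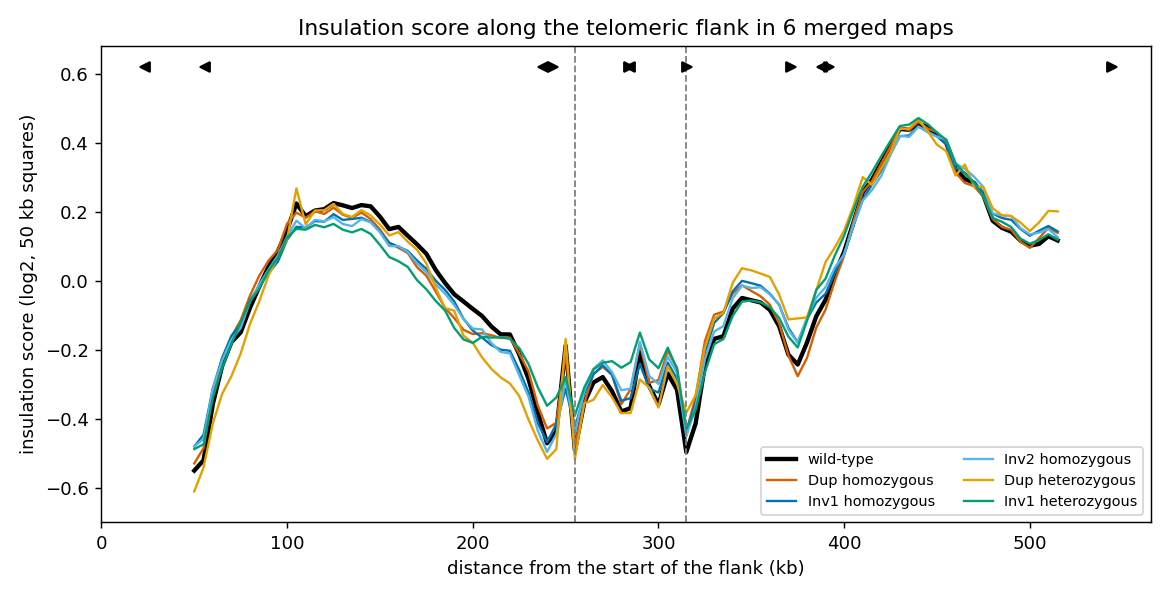
Insulation score (log2, squares of 50 kb) of the telomeric flank in the 6 merged maps, by distance from the start of the flank in kb. Dashed lines mark the wild-type minima at 255 and 315 kb, arrowheads the protein-coding start sites with their direction, and the curves keep the same course in all genotypes, with a highest score of 0.45 to 0.47 within *Gbf1*.

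Smaller squares of 25 kb gave 4 minima in wild-type, at 46075000 (-0.60), 46150000 (-0.37), 46210000 (-0.32) and 46330000 (0.01). The first 3 were among the minima of all 5 mutant maps, at the same edge except that the third lay 5 kb away in heterozygous *Dup*. The minimum at 46210000 lies where *Elovl3* and *Pitx3*, which run towards each other, meet at their ends. Of the 4 minima, 3 lay within 2 bins of a protein-coding start site, as did 27.9% of all edges scored at that size. With 50 kb squares it was 1 of 2, beside 26.6% of edges, and with 100 kb squares 1 of 1, beside 28.4%. In the centromeric flank it was 4 of 8 with 25 kb squares, beside 28.1%. With squares of 100 kb, wild-type had a single minimum, at 46150000 (-0.72).

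Edges within 50 kb of the start of the flank could not be scored under the rule, and the first edge that could, at 45885000 beside the start of *Kcnip2*, had the lowest score of all in wild-type (-0.55). Letting the squares reach into the 40 kb before the flank, which is not rearranged either and was added after the values were seen, gave a further minimum at 45860000 in all 6 maps, in the bin edge after the start of *Oga* at 45858236. On the mean of this longer profile it scored -0.93 in wild-type (-0.95 to -0.91), -0.93 in *Dup*, -0.78 in *Inv1*, -0.81 in *Inv2*, -1.03 in heterozygous *Dup* (-1.08 to -0.99) and -0.75 in heterozygous *Inv1* (-0.77 to -0.74). It was the deepest minimum of each map, and by it *Oga* would start outside the centromeric domain, whose first edge here is only the end of the flank. The score was higher in the maps with an *Inv1* or *Inv2* allele than in wild-type and both *Dup* maps, by more than the counting intervals. The 3 maps with the higher scores were also those with the larger share of read pairs that joined different bins, which was 79.2% to 86.0% in the 3 inversion maps and 66.5% to 76.9% in the other 3. The part of that share in the difference was not tested.

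Contact within the outer domains exceeded what distance alone gives, and contact between them fell short of it. Expected contact was the mean at the same distance over bin pairs on the same side of the rearranged interval, so that it also uses the centromeric flank. Within the telomeric domain, observed over expected contact was 1.55 in wild-type (1.55 to 1.56), 1.53 in *Dup*, 1.52 in *Inv1*, 1.52 in *Inv2*, 1.53 in heterozygous *Dup* and 1.55 in heterozygous *Inv1*. The telomeric domain was the most self-contacting part of the flank in every map, and the mutants held between 0.980 and 0.997 times the wild-type value. Within the centromeric domain the value was 1.22 in wild-type (1.21 to 1.22), 1.19 in *Dup*, 1.19 in *Inv1*, 1.18 in *Inv2*, 1.10 in heterozygous *Dup* (1.09 to 1.11) and 1.18 in heterozygous *Inv1*. Heterozygous *Dup*, the map from 1 library, stood lowest, at 0.906 times wild-type (0.898 to 0.914), while the other 4 mutants held between 0.970 and 0.979 times.

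The middle interval was not a domain of its own by this measure. Its inner contact was 0.991 times the expected in wild-type (0.977 to 1.01) and between 0.948 and 1.01 in the mutants, and its contact with the centromeric domain was nearly the same, 0.982 in wild-type and between 0.920 and 0.988 in the mutants. With the telomeric domain it was 0.884 in wild-type and between 0.880 and 0.906 in the mutants. *Ldb1* and *Pprc1* therefore lay in a stretch of mixed contact between 2 domains.

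Between the centromeric and the telomeric domain, observed over expected contact was 0.710 in wild-type (0.705 to 0.714), 0.682 in *Dup*, 0.711 in *Inv1*, 0.685 in *Inv2*, 0.690 in heterozygous *Dup* and 0.748 in heterozygous *Inv1* (0.743 to 0.753). Of the 5 mutants, only heterozygous *Inv1* stood above wild-type by more than counting error, at 1.05 times (1.04 to 1.06), while *Dup*, *Inv2* and heterozygous *Dup* stood below it, at 0.962 to 0.973 times. Heterozygous *Inv1* was also the map whose share of read pairs between different bins was highest (86.0%), and the part of this in the difference was not tested. Contact within the 3 stretches over contact between them was 1.76 in wild-type (1.75 to 1.77), 1.77 in *Dup*, 1.72 in *Inv1*, 1.77 in *Inv2*, 1.71 in heterozygous *Dup* and 1.67 in heterozygous *Inv1*. The mutants thus held between 0.952 and 1.01 times the wild-type contrast. The stretches were cut at the minima of the wild-type map, so this choice favours a high contrast in wild-type. With expected contact taken over all bin pairs of the map, rearranged ones included, the highest of these 5 ratios was 1.10 (*Dup*), in place of 1.01, and heterozygous *Dup* turned from 0.974 to 1.04. With the centromeric domain taken from the minimum at 45860000, they were between 0.950 and 1.01.

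Mean contact in the flank declined with distance with a log-log slope between 20 and 300 kb of -0.88 in wild-type, -0.90 in *Dup*, -0.85 in *Inv1*, -0.88 in *Inv2*, -0.84 in heterozygous *Dup* and -0.81 in heterozygous *Inv1*, with counting intervals of at most 0.01 on either side. In the centromeric flank the slopes were -0.85, -0.87, -0.82, -0.85, -0.80 and -0.83 in the same order. The slope of the telomeric flank was the steeper of the pair in every map except heterozygous *Inv1*. At 100 kb the telomeric flank held between 1.10 and 1.18 times the mean contact of the centromeric flank in the 6 maps, and at 300 kb between 0.628 and 0.781 times, a distance longer than either domain.

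In wild-type, 5 loops stood out. Loop value is the mean observed over expected contact of 3 × 3 bins, and a loop had to span at least 40 kb, to be the highest value within 25 kb and to reach 1.3 times the ring around it. Of 19 such maxima 10 reached the ring criterion. Of these, 5 had values between 2.62 and 3.64, and the other 5, between 0.791 and 1.32, were near or under the contact that distance alone gives. For scale, 6.42% of all 5356 squares at least 40 kb apart had a value of 2 or more, and the median square had 0.822.

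Of the 5 loops, 3 lay in the telomeric domain and shared anchors. The strongest joined the bin at 46205001, which holds the start of the fatty acid elongase gene *Elovl3*, to that at 46385001, where the ends of *Nfkb2* and *Psd* meet, 180 kb away. Its value was 3.64 in wild-type (3.49 to 3.79), 3.73 in *Dup*, 3.22 in *Inv1* (3.12 to 3.32), 3.39 in *Inv2*, 3.33 in heterozygous *Dup* and 3.55 in heterozygous *Inv1*. All 6 maps held it at more than 3 times the expected contact under this setting. With expected contact from the flank alone it was 2.98 in wild-type and 2.69 at the lowest. On recovered read pairs without bin factors it was 2.80 in wild-type and 2.44 at the lowest. There the second loop stood higher in wild-type, at 3.58. The second joined the same *Elovl3* bin to 46325001, inside *Gbf1*, 120 kb away. Its value was 3.25 in wild-type (3.15 to 3.35), 3.58 in *Dup* (3.49 to 3.67), 2.89 in *Inv1* (2.82 to 2.96), 3.02 in *Inv2*, 2.81 in heterozygous *Dup* and 3.39 in heterozygous *Inv1*. Here the homozygous mutants lay on both sides of wild-type, with *Dup* at 1.10 times wild-type (1.06 to 1.15) and *Inv1* at 0.889 times (0.855 to 0.924).

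The third loop joined the bin at 46155001, in *Nolc1*, to the same *Nfkb2* and *Psd* bin, 230 kb away, and so spanned nearly the whole telomeric domain. Its value was 2.93 in wild-type (2.78 to 3.09), 2.95 in *Dup*, 2.68 in *Inv1*, 2.74 in *Inv2*, 3.04 in heterozygous *Dup* and 2.83 in heterozygous *Inv1*. The intervals of *Dup*, *Inv2* and both heterozygotes against wild-type held a ratio of 1, and that of *Inv1* (0.856 to 0.980) did not. The ring criterion was reached here in every map except *Inv1*, at 1.29 times the ring. On recovered read pairs without bin factors the loop was 2.17 in wild-type and 2.15 at the lowest. The last 50 kb of the map hold this anchor and the start of *Nfkb2*. Bin factors there, over those of the rest of the flank, were 1.13 in wild-type, 1.22 in *Dup*, 1.06 in *Inv1* and 1.07 in *Inv2*. They were 1.35 in heterozygous *Dup* and 0.950 in heterozygous *Inv1*. The part of these factors in the loop and promoter values was not tested.

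The other 2 loops lay on the centromeric side and both started in *Kcnip2*. One joined 45880001, in an intron of *Kcnip2*, to 46095001, an intergenic bin past *Hps6* and just beyond the wild-type minimum, 215 kb away. Its value was 2.84 in wild-type (2.70 to 2.99), 2.78 in *Dup*, 2.42 in *Inv1*, 2.22 in *Inv2* (2.12 to 2.32), 2.39 in heterozygous *Dup* and 2.42 in heterozygous *Inv1*. In *Dup*, *Inv1*, *Inv2* and heterozygous *Inv1* the highest square within 25 kb had its telomeric anchor 10 kb closer, at 46085001, with 2.97, 2.52, 2.47 and 2.54. That bin is the one with few read pairs named above, so the position of this anchor is uncertain by 2 bins. On recovered read pairs without bin factors this loop was under 2 in all 6 maps, at 1.86 in wild-type and 1.48 at the lowest. The other joined 45885001, beside the *Kcnip2* start and its printed match, to 46025001 inside *Armh3*, 140 kb away. Its value was 2.62 in wild-type (2.52 to 2.72), 2.67 in *Dup*, 2.18 in *Inv1* (2.12 to 2.25), 2.35 in *Inv2*, 2.12 in heterozygous *Dup* (1.98 to 2.28) and 2.48 in heterozygous *Inv1*. The lowest value of any of the 5 loops in any map was this 2.12. At the wild-type bins the ring criterion was missed by the longer of these loops in *Inv2* and by the shorter in *Inv1*, both at 1.29 times the ring.

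**Figure D3:**
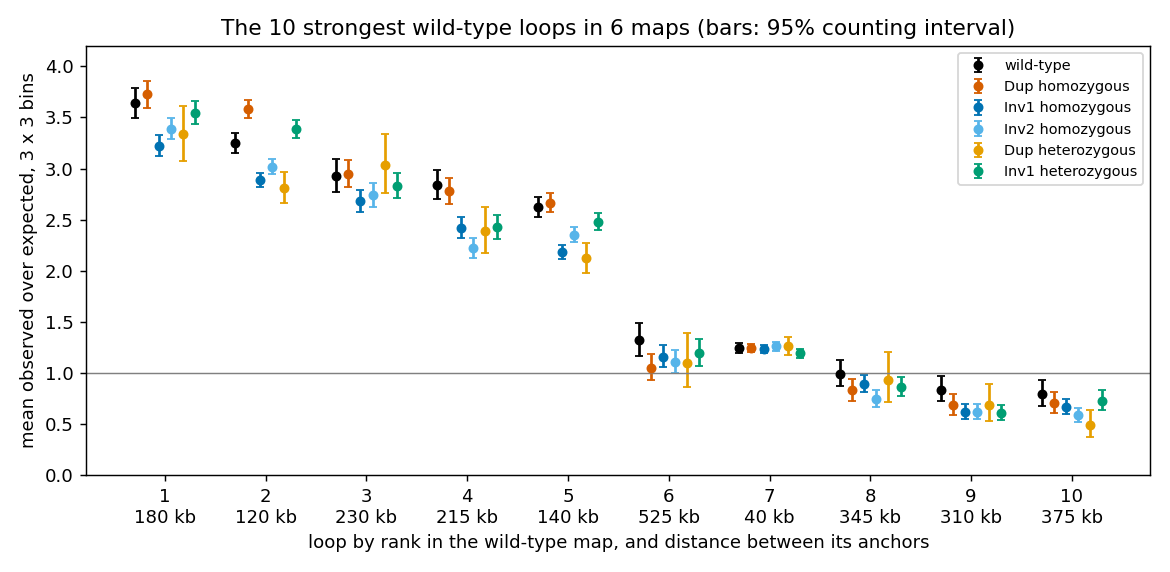
Loop value (mean observed over expected contact of 3 × 3 bins) of the 10 strongest wild-type loops in the 6 maps, ordered by rank with the distance between anchors, and with 95% counting intervals as bars. Loops 1 to 5 lie between 2.12 and 3.73 in every map, well apart from loops 6 to 10, which lie between 0.486 and 1.32.

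Averaged over the 5 loops, the ratio to wild-type was 1.03 in *Dup* (0.999 to 1.05), 0.875 in *Inv1* (0.853 to 0.897), 0.895 in *Inv2* (0.873 to 0.917), 0.893 in heterozygous *Dup* (0.856 to 0.931) and 0.957 in heterozygous *Inv1* (0.933 to 0.981). Since the loops were chosen on the wild-type map, ratios under 1 are favoured by the choice. The direction turned with the processing in heterozygous *Inv1*, at 1.13 on recovered read pairs, and in *Dup*, at 0.739 with expected contact from all bin pairs and 0.966 for single bins. Relative to the ring around each loop the lowest of the 5 mean ratios was 0.924, in place of 0.875. When the same rule was applied to each map in turn, it returned 5 loops with values of at least 2 in *Dup*, *Inv2*, heterozygous *Dup* and heterozygous *Inv1* and 4 in *Inv1*, and each of them lay within 2 bins of a wild-type loop on both axes. Under this rule, then, no mutant map held a loop of at least 2 in the flank that wild-type lacked.

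The 5 loops used 8 anchor bins. Of these, 3 had a strict CTCF-like match within 1 bin, those at *Kcnip2*, *Nolc1* and *Elovl3*, beside 13.3% of all bins of the flank, and the same 3 were within 1 bin of a protein-coding start site, beside 23.0%. The match at the *Elovl3* anchor, in an intron of *Pitx3*, was on the plus strand, and its loops ran towards the telomere. Those at *Kcnip2* and *Nolc1* were on the minus strand, while their loops also ran towards the telomere. The anchors at *Nfkb2* and *Psd*, in *Gbf1*, in *Armh3*, past *Hps6* and in the intron of *Kcnip2* had no strict match within 1 bin.

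Pairs of promoter bins in the flank had a slightly higher mean contact than other bin pairs. Among bin pairs at least 25 kb apart, the 41 pairs of which both bins held a protein-coding start site had an observed over expected contact of 1.17 in wild-type (1.13 to 1.21), the 958 pairs with 1 such bin had 1.06, and the 4887 pairs with none had 1.00. The first of these was between 1.12 and 1.14 in the mutants, and the ratio of the first to the last was between 1.10 and 1.18 in the 6 maps. On recovered read pairs without bin factors, wild-type had the lowest of these ratios, 1.08, and the mutants had 1.14 to 1.20. The difference was larger within a domain than across domains. Within a domain, the 12 promoter pairs had 1.87 in wild-type and the 1773 pairs without a promoter had 1.40, while across domains the 29 promoter pairs had 0.875 and the 3114 other pairs had 0.781. In the mutants the 12 pairs had between 1.71 and 1.79. Since 7 of the 12 lay in the telomeric domain, where mean contact was higher, the domain was also taken alone, and there the 7 pairs had 1.93 in wild-type and the 833 pairs without a promoter 1.58. In wild-type these 7 were not alike. Those of *Nfkb2* with *Elovl3*, *Pitx3*, *Gbf1* and *Nolc1* had 3.30, 2.51, 2.46 and 2.06. Those of *Nolc1* with *Elovl3*, *Gbf1* and *Pitx3* had 1.12, 1.06 and 1.00, under the 1.58. The higher mean of the 7 thus came from *Nfkb2*, whose pairs are also among the 41. The mean of the 41 without *Nfkb2* was not computed, so no trait of promoters in general is read from it.

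The promoter pair with the highest contact of the 41 was that of *Elovl3* and *Nfkb2*, 170 kb apart, in all 6 maps. It stood at 3.30 times the expected in wild-type (367 read pairs), 3.47 in *Dup*, 3.16 in *Inv1*, 3.18 in *Inv2*, 3.09 in heterozygous *Dup* and 3.05 in heterozygous *Inv1*. The next in wild-type was that of *Pitx3* and *Nfkb2*, at 2.51, with 2.06 to 2.49 in the mutants, and the next in each of the 5 mutants that of *Nolc1* and *Nfkb2*, at 2.4 to 2.57, with 2.06 in wild-type. *Nfkb2*, whose product acts in the non-canonical NF-κB pathway, was thus a partner in the leading pairs of every map. Its start bin was not the peak of this contact: the strongest partner bin of *Elovl3* lay between 46380001 and 46390001 in all 6 maps, at 4.32 in wild-type, and that of *Nolc1* was at 46390001 in wild-type, at 3.04, beside the loop anchor at the ends of *Nfkb2* and *Psd*. On the centromeric side, *Kcnip2* and *Armh3* stood at 2.21 in wild-type and between 1.81 and 2.44 in the mutants, and *Oga* and *Armh3* at 2.15 and between 1.42 and 2.03. *Oga* and *Kcnip2*, neighbours 35 kb apart, were at 0.605 in wild-type and between 0.495 and 0.574 in the mutants. Single bin pairs held few read pairs, for instance 16 for *Oga* and *Pitx3* in wild-type, so that the lower of these 41 values have no order.

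Read from each promoter, the preference for its own domain differed between genes and was similar between genotypes. For *Elovl3*, observed over expected contact more than 10 kb away was 3.16 times as high within the telomeric domain as in the rest of the flank in wild-type, and between 2.90 and 3.40 times in the mutants. It was 2.65 for *Pitx3* (2.47 to 2.70 in the mutants), 2.53 for *Gbf1* (2.43 to 2.54), 2.03 for *Nolc1* (1.93 to 2.07) and 1.89 for *Nfkb2* (1.79 at the lowest). *Nolc1* starts in the first bin of this domain and *Nfkb2* near its far end. Among genes of the centromeric domain it was 1.99 for *Armh3* (1.76 to 1.92), 1.83 for *Hps6* (1.59 to 1.85), 1.5 for *Kcnip2* (1.33 to 1.46) and 1.23 for *Oga* (1.12 to 1.25), the last with the domain counted from the start of the flank. The bin of *Ldb1* and *Pprc1* had 1.14 in wild-type and between 1.08 and 1.18 in the mutants, the least preference in 5 of the 6 maps, while in heterozygous *Dup* *Oga* had less (1.12 against 1.18). As shares, *Elovl3* had 81.1% of its contact in the flank within the telomeric domain in wild-type (80.6% to 81.7%) and between 79.7% and 82.0% in the mutants. In wild-type the shares of *Pitx3* (81.8%), *Gbf1* (82.2%) and *Nfkb2* (82.5%) were higher and that of *Nolc1* (60%) lower. Unlike the ratios above, these shares are not scaled by distance, and they do not set *Elovl3* apart.

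**Figure D4:**
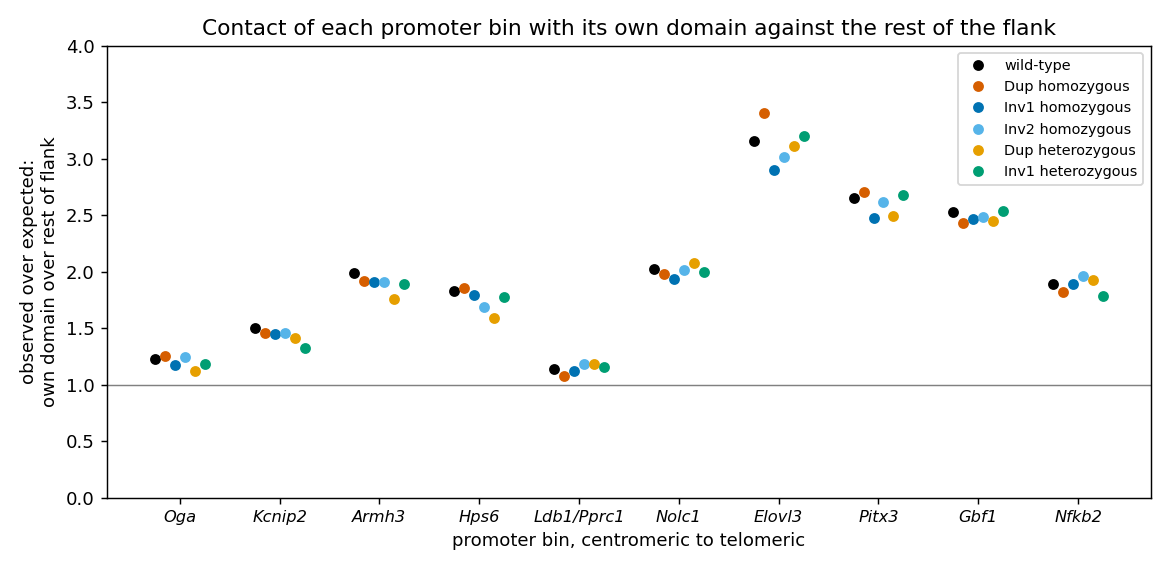
Observed over expected contact of each promoter bin with its own domain divided by that with the rest of the flank, for 10 promoter bins from the centromeric to the telomeric side in the 6 maps (contacts more than 10 kb away). *Elovl3* lies highest (2.90 to 3.40) and *Ldb1*/*Pprc1* (1.08 to 1.18) lowest except in heterozygous *Dup*, where *Oga* (1.12) lies lower, and within a gene the 6 maps lie close together.

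Few single bin pairs of the flank differed from wild-type. Over pairs with at least 20 read pairs in both maps and after scaling at each distance, 2.93% of 5975 pairs were past 1.5-fold in either direction in *Dup*, beside 28.4% of the whole map, where the duplicated copies are included. In *Inv1* it was 2.62% of 6025 beside 10.3%, in *Inv2* 2.77% of 6022 beside 14.2%, in heterozygous *Dup* 5.23% of 4092 beside 30.1%, and in heterozygous *Inv1* 3.85% of 6003 beside 6.84%. The flank was below the share of the whole map in all 5 comparisons, which share the wild-type map. The centromeric flank, equally free of rearrangement, gave 2.12%, 2.55%, 2.62%, 4.79% and 3.44% in the same order.

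**Figure D5:**
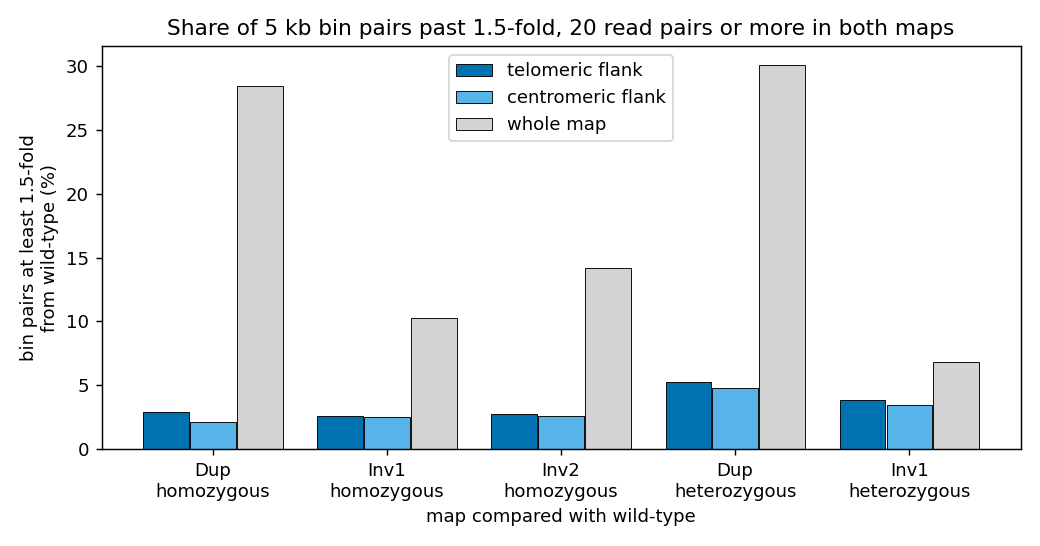
Percent of 5 kb bin pairs at least 1.5-fold from wild-type in either direction, for the telomeric flank, the centromeric flank and the whole map, in each mutant map (pairs with at least 20 read pairs in both maps). Both flanks lie between 2.12% and 5.23% in every mutant, while the whole map reaches 30.1%.

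These pairs lay mostly at 150 kb and beyond, where counts are low. Among pairs 5 to 45 kb apart, 0.412% were past 1.5-fold in *Dup*, 0.514% in *Inv1*, 0.309% in *Inv2*, 2.07% in heterozygous *Dup* and 1.23% in heterozygous *Inv1*, and among those 300 to 560 kb apart 7.59%, 6.17%, 7.39%, 13.0% and 8.20%. The standard deviation of the log2 ratio at 300 to 560 kb was between 0.976 and 1.05 times that which counting error alone gives. This covers only pairs with at least 20 read pairs in both maps, which at that distance were 285 in heterozygous *Dup* and 1212 to 1247 in the other mutants. The 285 had a median ratio of 1.10. Pairs under the minimum are left out, so the spread of all pairs at this distance is not given. At 5 to 45 kb it was between 1.38 and 1.84 times, highest in heterozygous *Inv1*, with standard deviations between 0.14 and 0.21. Among the pairs kept, the excess over counting error was thus largest at short distance, where the differences themselves were smallest. With bins of 15 kb, 0 of 666 pairs were past 1.5-fold in *Dup*, *Inv1*, *Inv2* and heterozygous *Inv1*, and 2, both lower, in heterozygous *Dup*.

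The direction of the differing pairs depended on scaling and on the minimum of read pairs. With a factor at each distance, 32% of the pairs past 1.5-fold were higher in *Dup*, 48.7% in *Inv1*, 35.3% in *Inv2*, 57.0% in heterozygous *Dup* and 64.9% in heterozygous *Inv1*. With 1 factor for the flank total, these shares were 24.9%, 83.9%, 51.0%, 87.1% and 88.6%. With a factor at each distance but no minimum of read pairs, they were 42.5%, 63.1%, 45.9%, 31.1% and 71.0%. With at least 50 read pairs they were 26.9%, 33.3%, 10.7%, 37.5% and 65.8%. No direction is therefore read from them. Correlation of log2 observed over expected contact was taken across bin pairs at least 10 kb apart with at least 20 read pairs in both maps. Each mutant correlated with wild-type with a Pearson r of 0.90 to 0.93 (3980 to 5913 pairs, which share bins and libraries and are not independent). Between mutants r ran from 0.876 (heterozygous *Dup* with heterozygous *Inv1*) to 0.94 (*Inv1* with *Inv2*).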

How the data were processed

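Limb bud cells were fixed, digested with DpnII and ligated, and the locus was captured. Reads had been trimmed by the authors, aligned to mm9 through HiCUP with Bowtie2 2.4.2, and joined over replicates, and well-mapped pairs were binned at 5 kb with Juicer 1.19.02. The deposited values are contact signal, Knight-Ruiz balanced to equal bin totals for wild-type and inversions and LOIC normalized for *Dup* maps, which leaves duplicated bins their larger totals. For heterozygous *Dup*, the sources used here do not state the assumed copy number. The 3 subtraction maps hold the authors' own comparisons and were not used.

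Whole read pairs were recovered within 0.01 for 100% of values (7867931 in wild-type, 13101700 in *Dup*, 11615891 in *Inv1*, 12790852 in *Inv2*, 3350758 in heterozygous *Dup* and 7804215 in heterozygous *Inv1*), and gave the counting intervals (1.96 standard errors of the log). Minima, loops and folds were computed in Python 3.11.15 (with scipy 1.17.1 and numpy 2.4.6), tested on simulated data, and drawn with matplotlib 3.10.9. Genes came from GENCODE on mm9, current symbols from RefSeq. All protein-coding genes starting in the flank were named. Of other listed genes, *Trim8*, *Sufu*, *Actr1a*, *Arl3*, *Sfxn2*, *Fbxl15* and *Cuedc2* lie outside it. The region, gene lists and measures were chosen with earlier results of these data known.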

Additional observations from a re-analysis of the deposited data

How the results depend on the processing

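The summaries named here were recomputed under other settings, 1 choice at a time, while single promoters and promoter pairs, contact of each domain, profile differences and map correlations were not. The 2 wild-type minima became 4 with 25 kb squares, 1 with 100 kb squares, 1 at a prominence of 0.3 and 3 at a prominence of 0.1. The mean difference of mutant and wild-type scores at the minima, 0.04 to 0.08 over the 5 mutants, became 0.00031 to 0.11 with 25 kb squares and reached 0.15 on read pairs without bin factors. The ratio of within to between contact, 0.952 to 1.01 times wild-type, had a lowest value of 0.978 with expected contact from the flank alone and 0.932 on read pairs, a highest of 1.10 with expected contact from all bin pairs, and became 0.897 to 1.02 with 1 factor for the flank total. The mean loop ratio, 0.875 to 1.03, became 0.843 to 0.966 for single bins and 0.736 to 0.944 with expected contact from all bin pairs, had a lowest value of 0.903 for 5 × 5 bins and 0.924 over the ring, and a highest of 1.13 on read pairs. The share of bin pairs past 1.5-fold, 2.62% to 5.23%, became 0.628% to 1.07% with at least 50 read pairs and 0% to 0.3003% in 15 kb bins, and reached 12.9% with no minimum and 7.97% with 1 factor for the flank total. The decay slopes, -0.90 to -0.81, became -0.75 to -0.65 over 20 to 150 kb, with a lowest of -0.92 on read pairs. The ratio of promoter pairs to pairs without promoters, at least 1.10, was at least 1.13 with all annotated genes and at least 1.08 (wild-type) on read pairs. The looser motif took the share of bins with a match from 4.42% to 66.4%. Of 140 values for single genotypes under other settings, 67 moved by less than their counting interval (for shares past 1.5-fold, by under 1.5 times). The other 73 moved by more, and the cause was not tested. The 67 include values that could not move. Balancing the *Dup* maps to equal bin totals was 1 of the settings, and it leaves the inversion maps and wild-type as they are. On read pairs the lowest of the 5 loops in any map, that from the intron of *Kcnip2*, had 1.48. The limits are that 1 merged map per genotype gives no spread between embryos, that depth limits single bin pairs beyond 300 kb, and that the flank ends at the end of the map, so the telomeric domain may run on. No library could be left out and no paired analysis was possible because the replicates were merged before deposit.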
